A study of Mus musculus with 12 samples.

Results

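The genes described here are 10 genes of the heart muscle sarcomere and its close partners (*Tnnt2*, *Actc1*, *Ankrd1*, *Myh6*, *Tnni3*, *Tnnc1*, *Mybpc3*, *Myl2*, *Myl3* and *Nppa*), out of 56691 genes in a count table of mouse oocytes. They were chosen by name after 3 of them, *Tnnt2*, *Actc1* and *Ankrd1*, had been seen at 0 counts in some libraries and at 200 or more in others. The counts of those 3 genes are therefore a description, and no p-value is given for them. They remain among the 10 genes wherever calls are counted below, and their own calls are no evidence. All 10 genes had a row in the table, and none had to be left out.

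The study asked how loss of ALKBH5, an enzyme that removes the m6A mark from RNA, alters the maternal transcripts of oocytes during meiotic maturation. Each of the 6 groups held 2 libraries, 12 in all, which the study describes as independent biological samples. The wild-type (WT) and *Alkbh5*-/- (KO) females were on a C57BL/6 background, and the KO allele is a deletion of exon 1 in the whole animal. Full-grown oocytes came from females given PMSG, a gonadotropin that stimulates follicle growth, at about 3 weeks of age by the methods and 4 to 6 weeks by another statement of the study. The surrounding cumulus cells were stripped off by pipetting. Pools of oocytes were taken at fixed times of culture as germinal vesicle (GV), germinal vesicle breakdown (GVBD) and metaphase II (MII) samples. The study reports that most KO oocytes in culture did not extrude a polar body. It does not state whether the sequenced pools were sorted by the stage reached. GV, GVBD and MII below are the sample labels, and in KO MII genotype and stage reached cannot be told apart. An ERCC mix of synthetic RNAs was added as a spike-in to the libraries of both genotypes. With whole pools sequenced, fewer cells of a type and less RNA per cell cannot be told apart.

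The sarcomere is the contractile unit of striated muscle, in which myosin heads pull on actin filaments. Calcium binds the troponin complex on the actin filament and thereby switches contraction on. Cardiac muscle uses its own forms of many of these proteins, while others, such as troponin C, are shared with slow skeletal muscle. Together these genes are used as markers of heart muscle cells, though a single one need not mark them. In full-grown oocytes transcription is nearly silent, and stored maternal transcripts are translated or degraded as meiosis proceeds.

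The promoters of the 3 genes that led to this choice are shown because these genes were high or low in the same libraries. Each run is the 250 bases before the RefSeq transcription start on GRCm38.p6, written from 5′ to 3′ on the strand of the gene. The *Tnnt2* window lies at chr1:135836084-135836333 on the plus strand. The *Actc1* window lies at chr2:114052876-114053125 on the minus strand and the *Ankrd1* window at chr19:36119845-36120094 on the minus strand. Capitals mark the motifs found in a search of both strands for 5 motifs, each described after the sequences.
*Tnnt2*: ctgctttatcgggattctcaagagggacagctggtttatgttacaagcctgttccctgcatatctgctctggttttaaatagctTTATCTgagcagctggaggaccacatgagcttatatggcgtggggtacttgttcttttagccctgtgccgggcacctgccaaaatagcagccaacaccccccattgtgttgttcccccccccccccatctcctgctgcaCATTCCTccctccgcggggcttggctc
*Actc1*: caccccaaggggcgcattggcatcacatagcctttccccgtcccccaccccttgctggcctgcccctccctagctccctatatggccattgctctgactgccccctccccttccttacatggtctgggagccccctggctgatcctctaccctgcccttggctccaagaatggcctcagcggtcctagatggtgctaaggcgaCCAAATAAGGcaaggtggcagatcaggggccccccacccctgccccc
*Ankrd1*: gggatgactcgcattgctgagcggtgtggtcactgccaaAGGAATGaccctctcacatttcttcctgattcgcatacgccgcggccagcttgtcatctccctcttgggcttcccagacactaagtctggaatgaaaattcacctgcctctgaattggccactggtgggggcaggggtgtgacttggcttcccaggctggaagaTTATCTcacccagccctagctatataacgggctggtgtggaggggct

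The capitals in *Actc1* mark 1 CArG box. The motif bound by TEAD factors, CATTCCT, lay on the strand of the gene in *Tnnt2* and on the opposite strand in *Ankrd1*. It occurred in 4.51% of 32851 RefSeq promoter windows of this length and in 4 of the 10 genes (*Tnnt2*, *Myl3*, *Myh6* and *Ankrd1*). A GATA factor motif, AGATAA, lay on the opposite strand in both *Tnnt2* and *Ankrd1*. It occurred in 9.99% of windows and in 3 of the genes (*Tnnt2*, *Myl2* and *Ankrd1*). The CArG box, the site of serum response factor, occurred in 1.47% of windows and in *Actc1* and *Myl3*. The MEF2 site occurred in 2.92% of windows and in *Mybpc3* alone among the genes. The TATA box letters, TATAAA, occurred in 12.37% of windows and in *Nppa* and *Myl2*. No motif was found in every gene, and a match is only a description of these letters.

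The libraries held 28557742 to 40247810 counts and between 19837 and 24436 detected genes. *Alkbh5* had 5355 to 10181 counts in the WT libraries and 54 to 143 in the KO libraries, so every library matched its genotype. All 10 oocyte marker genes examined had at least 10 counts in every library, with summed counts of 594573 to 1015940. The fixed list of 12 cumulus and granulosa cell genes reached a summed level of 40.1 to 87.7 CPM (counts scaled to the total of endogenous, non-ERCC counts of the library), and 4 to 9 of its genes had at least 10 counts in a library. Most of that sum came from *Cyp19a1* (577 to 2225 counts) and *Nr5a2* (292 to 480). *Amh* and *Foxl2* of the same list had at most 4 and 5 counts in any library. These 4 genes were named after their values were seen.

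*Tnnt2*, *Actc1* and *Ankrd1* split the libraries into 8 with at least 100 counts of each gene and 4 with at most 5 counts of any of them. *Tnnt2* (ENSMUSG00000026414, chr1:135836354-135852260, plus strand), cardiac troponin T, anchors the troponin complex to tropomyosin. Given as replicate 1 then replicate 2, the WT pairs had 4 and 483 counts (GV), 361 and 976 (GVBD) and 1007 and 465 (MII). The KO pairs had 290 and 332 (GV), 0 and 996 (GVBD) and 0 and 0 (MII). The 4 low libraries were therefore WT GV replicate 1, KO GVBD replicate 1 and both KO MII libraries, and the other 5 WT and 3 KO libraries were high.

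*Actc1* (ENSMUSG00000068614, chr2:114047282-114053548, minus strand) encodes cardiac alpha-actin, which polymerises into the thin filament. Its WT pairs had 0 and 436 counts (GV), 302 and 597 (GVBD) and 609 and 360 (MII). Its KO pairs had 370 and 274 (GV), 0 and 575 (GVBD) and 0 and 0 (MII). It was thus at 0 in exactly the 4 low libraries. *Ankrd1* (ENSMUSG00000024803, chr19:36111961-36120099, minus strand) encodes a stretch-responsive ankyrin repeat protein that binds titin in the sarcomere and also acts in the nucleus. The WT counts were 5 and 229 (GV), 124 and 665 (GVBD) and 724 and 198 (MII). The KO counts were 124 and 144 (GV), 0 and 682 (GVBD) and 0 and 0 (MII). The same 4 libraries were low.

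**Figure D1:**
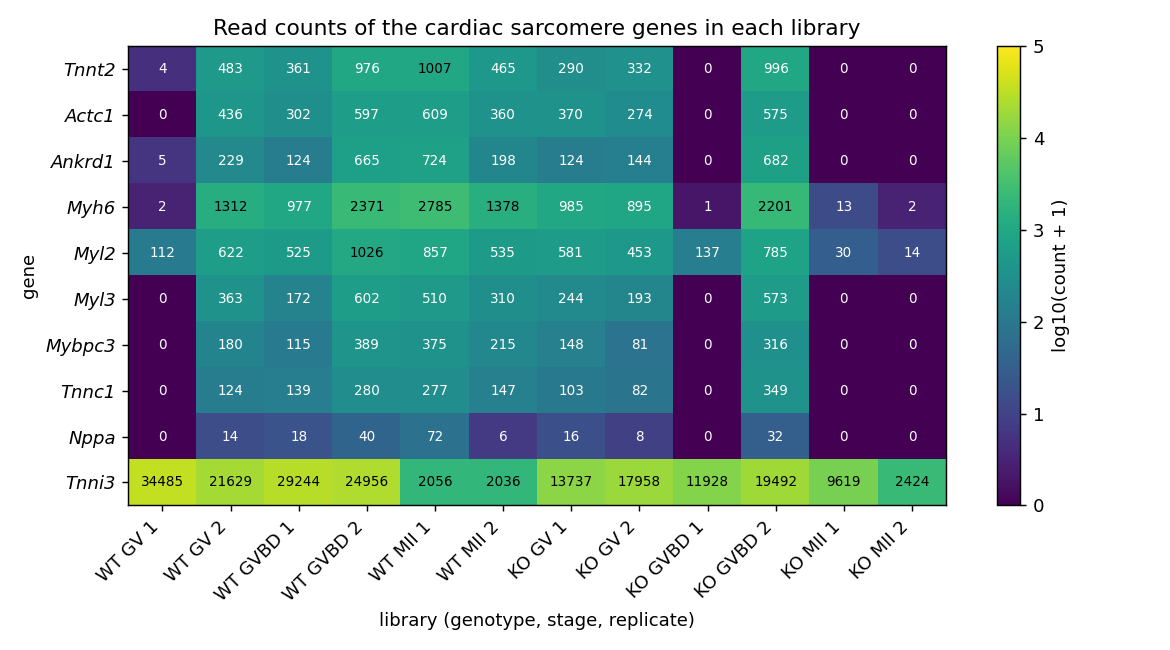
Read counts of the 10 genes (rows) in the 12 libraries (columns, named by genotype, stage and replicate). Colour gives log10(count + 1) and the printed numbers are the counts. 4 columns, WT GV 1, KO GVBD 1, KO MII 1 and KO MII 2, are dark for every gene except *Tnni3* and, more weakly, *Myl2*.

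Counts of 0 in deep libraries were uncommon at this level. Of 11112 genes with at least 200 counts in some library, 391 (3.52%) had 0 counts in another library. Among the 10 genes, 9 reached 200 counts in a library. 3 of them, *Tnnt2*, *Actc1* and *Ankrd1*, had 0 in another by the choice itself, so nothing is read from them. Of the 6 others, 3 (*Tnnc1*, *Mybpc3* and *Myl3*) had 0 in another. A count of 0 allows up to 3 counts in that library.

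The motor and its light chains followed the same split. *Myh6* (chr14:54941921-54966927, minus strand), the alpha-myosin heavy chain, ranged from 895 to 2785 counts in the 8 high libraries, with a median share of 35.3% of the summed count of the 9 genes other than *Tnni3*. It had 2 counts in WT GV replicate 1, 1 in KO GVBD replicate 1, and 13 and 2 in KO MII. *Myl3* (chr9:110741861-110769798, plus strand), the ventricular essential light chain, ranged from 172 to 602 counts in the 8 libraries and was at 0 in the other 4. *Myl2* (chr5:122100951-122113472, plus strand), the ventricular regulatory light chain, was the exception among the light chains. It had 453 to 1026 counts in the 8 libraries, 112 in WT GV replicate 1, 137 in KO GVBD replicate 1, and 30 and 14 in KO MII. The groups of 8 and 4 did not overlap for *Myl2*, but it was detected everywhere. On the opposite strand, exons of *Ccdc63* overlap 60 bases of *Myl2*, and *Ccdc63* had 633 counts over all libraries, so reads of the shared bases cannot be told apart.

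The regulators of the filaments and the hormone gene also split in this way. *Mybpc3* (chr2:91118144-91136516, plus strand), cardiac myosin-binding protein C, had 81 to 389 counts in the 8 libraries and 0 in the other 4. *Tnnc1* (chr14:31208312-31211729, plus strand), the calcium-binding troponin C of cardiac and slow muscle, had 82 to 349 counts in the 8 libraries and 0 in the other 4. *Nppa* (chr4:148000722-148002079, plus strand), which encodes atrial natriuretic peptide, was scarce, with 6 to 72 counts in the 8 libraries and 0 in the other 4. In all, 9 of the 10 genes were higher in each of the 8 libraries than in any of the other 4. Over all 13791 genes with at least 100 counts in a library, a level that *Nppa* did not reach, 1.02% showed that order. Since 3 of the genes defined the 2 sets of libraries, these counts describe the split and do not test it.

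*Tnni3* (ENSMUSG00000035458, chr7:4518305-4524229, minus strand), cardiac troponin I, which holds contraction off until calcium binds, did not follow the split. Its WT pairs had 34485 and 21629 counts (GV), 29244 and 24956 (GVBD) and 2056 and 2036 (MII). Its KO pairs had 13737 and 17958 (GV), 11928 and 19492 (GVBD) and 9619 and 2424 (MII). Every library thus held at least 2036 counts, and the highest count of all was in WT GV replicate 1, where *Actc1*, *Myl3*, *Mybpc3* and *Tnnc1* were at 0. Per kilobase of exon, *Tnni3* had a level of 25.0 to 468 CPM, whereas the highest level of any other of the genes on that scale was 15.3, for *Myl2* in WT GVBD replicate 2. An exon of *Dnaaf3*, on the same strand, overlaps *Tnni3* by 86 bases, and *Dnaaf3* had 7 counts in all libraries together.

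In the 8 high libraries, the 9 genes other than *Tnni3* kept similar proportions while their total varied. Their summed counts were 3763, 2733, 6946, 7216 and 3614 in the WT libraries (GV 2, GVBD 1, GVBD 2, MII 1 and MII 2). The KO sums were 2861 and 2462 at GV and 6509 in GVBD replicate 2. In the other 4 libraries the sums were 123, 138, 43 and 16 (WT GV 1, KO GVBD 1, KO MII 1 and KO MII 2), mostly from *Myl2*. The 9 genes made up at most 0.0202% of the endogenous counts of any library, reached in WT GVBD replicate 2.

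*Myh6* took 33.8% to 38.6% of the summed count in the 8 libraries, a coefficient of variation (CV) of 5.1%, against a CV of 40.7% for its CPM. *Tnnt2* took 10.1% to 15.3% (CV 11.2%, against 48.0% for CPM) and *Actc1* 8.44% to 12.9% (CV 15.7%, against 29.6%). *Ankrd1* varied most among the genes with over 100 counts in each of the 8, from 4.33% to 10.5% (CV 36.2%, against 72.1%). Its share was highest in KO GVBD replicate 2, WT MII replicate 1 and WT GVBD replicate 2, the 3 libraries with the largest summed counts. *Nppa*, at a share of at most 1.0%, rested on too few counts for its CV of 48.3% to be read closely. For each of the 9 genes the CV of the share was below that of the CPM. The shares of the 9 genes sum to a fixed total, so they are not independent of each other.

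**Figure D2:**
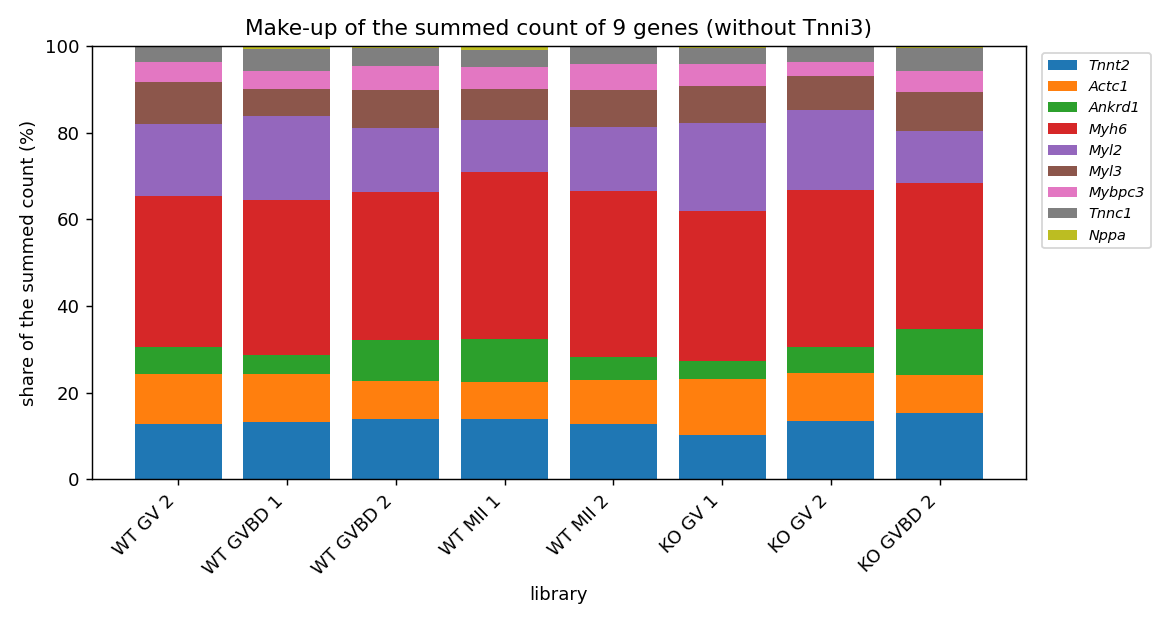
Stacked bars of the share (%) of each of 9 genes (all but *Tnni3*) in their summed count, in the 8 libraries with at least 100 counts of *Tnnt2*, *Actc1* and *Ankrd1*. *Myh6* fills 33.8% to 38.6% of every bar, and *Ankrd1* ranges from 4.33% to 10.5%.

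Over the 12 libraries, on log2(CPM + 1), Pearson's r with *Tnnt2* was 0.994 for *Myh6* and *Myl3*, 0.991 for *Actc1* and *Tnnc1* and 0.839 for *Nppa*. It was 0.041 for *Tnni3*. Within the 8 high libraries alone, r was 0.992 for *Ankrd1*, 0.973 for *Myh6*, 0.812 for *Myl2* and -0.1 for *Tnni3*. These values are descriptions, since the 12 libraries fall into separate sets and all genes of a library share its depth.

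The transcripts of these genes were nearly all distinct from those of their relatives. In the transcripts of the annotation, every 100-base window of 9 of the genes occurred in no other gene, and 89.96% of the *Myh6* windows did, the rest being shared with *Myh7*. *Myh7*, the beta-myosin heavy chain, had 29 to 99 counts in the 8 libraries and 1 to 27 in the other 4. Among the actin paralogs, *Actb* had 1278 to 2906 counts and *Actg1* 424 to 2869 over all 12 libraries, with no gap between the sets. *Acta2*, smooth muscle actin, had 10 to 56 counts in the 8 libraries and 0 in the other 4. *Acta1*, skeletal muscle actin, had 16 to 894 counts in the 8 libraries and 0 to 9 in the other 4, and *Actg2* had 29 to 325 and 16 to 298.

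The direct neighbours of the 3 leading genes did not share the split. *Aqr*, next to *Actc1*, had 445 to 955 counts in every library, and *Gjd2* on its other side was at 0 in all of them. *Rpp30*, next to *Ankrd1*, had 1144 to 10271 counts, and *Pcgf5* had 31 to 112. *Lad1*, next to *Tnnt2*, had 6 to 134 counts, while *Pkp1*, an epithelial desmosome gene, had 119 and 73 in WT GVBD, 4 in KO GVBD replicate 1 and 0 elsewhere.

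Many other heart and striated muscle genes followed the split, and others did not. Of 45 such genes in the fixed list, 24 were higher in each of the 8 libraries than in any of the other 4, while 19 were above 0 in all 12 and 7 were at 0 in at least 1 of the 8. Of the 42 with at least 20 counts in a library, 7 were at 0 in all of the other 4 and above 0 in all 8, against 0.145% of 20741 genes at that level. Of the 35 with at least 100 counts in a library, 20 showed that order, against 1.02% of all genes at that level. The list was compiled with earlier results of these data known, and its genes share a tissue with the genes that defined the libraries.

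A stricter form of the split, at least 20 counts in each of the 8 libraries and at least 10 times the highest of the other 4, was met by 17 genes. These were 7 of the 10 genes, 8 of the fixed list (*Pln*, *Ckm*, *Ckmt2*, *Hspb7*, *Tmod1*, *Myoz2*, *Ldb3* and *Tcap*) and 2 in no list, *Xirp2*, an actin-binding protein of muscle, and *Pygm*, muscle glycogen phosphorylase. Of these, *Pln*, which inhibits the calcium pump of the sarcoplasmic reticulum, had 143 to 421 counts in the 8 libraries and at most 5 in the other 4. *Ckm*, muscle creatine kinase, had 124 to 403 and at most 4. No gene met the same criterion in the opposite direction.

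The 8 genes outside the chosen 10 whose log2 levels over the 12 libraries were most like the mean of the 10 were *Tcap* (r = 0.988), *Myoz2* (0.985), *Fabp3* (0.980), *Hspb7* (0.979), *Pygm* (0.976), *Ckmt2* (0.976), *Tgm2* (0.975) and *Ckm* (0.974). *Tcap* and *Myoz2* encode proteins of the Z-disc, and *Fabp3* encodes the fatty acid-binding protein of heart and muscle. Of 13623 genes ranked, 28 had r of at least 0.9, and 16 of the 28 were in the list of 45.

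The 5 genes of the list with the highest counts were detected in every library. *Atp2a2*, the calcium pump that is used in many tissues as well as in heart, had 3653 to 8510 counts. *Ttn*, the giant spring protein titin, had 643 to 2946. *Tpm1*, a tropomyosin, had 595 to 1674 counts in the 8 libraries and 111 to 369 in the other 4. *Mb*, myoglobin, had 640 to 1560 in the 8 and 39 to 255 in the other 4, and *Myl4*, the atrial light chain, had 474 to 1569 with overlap between the sets. Among the cardiac transcription factors of the list, named after their values were seen, *Gata4* had 89 to 534 counts in every library, and its highest count was in KO MII replicate 1. *Nkx2-5* was at 0 in 11 libraries and had 4 counts in KO GVBD replicate 2, and *Tbx5* had 0 to 26 counts.

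Markers of other tissues also varied between libraries, and most did so with other splits. The exceptions among the lists of other cell types were *Acta1* and *Acta2*, given above, and *Cdh5* and *Dcn*, both named after their values were seen. *Cdh5*, an endothelial cadherin, had 20 to 54 counts in the 8 libraries and 0 to 8 in the other 4, and *Dcn*, a fibroblast proteoglycan, 119 to 366 and 26 to 106. The order was thus met by 2 of 8 endothelium and fibroblast genes, 1 of 8 smooth muscle genes, 1 of 16 fast skeletal muscle genes and none of the blood, liver, epidermis, cumulus and granulosa or oocyte genes. The summed endothelium and fibroblast list ranged from 87.5 to 157 CPM in the 8 libraries and from 58.2 to 136 in the other 4, and the smooth muscle list from 53.8 to 134 and from 48.4 to 87.8. *Pecam1* was the largest part of the first sum in every library, with 1745 to 5097 counts in the 8 and 1568 to 4002 in the 4. *Col1a1* had 46 to 987 and 0 to 227 counts, and *Col3a1* 53 to 1196 and 0 to 203. *Myh11* and *Cnn1* made up most of the second sum. These genes were named after their values were seen, and the sums say little about the rest of the lists.

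The red cell, keratin and fast fibre sets below were taken from longer lists after values were seen and carry no test. Some other genes of those lists did not share their pattern. *Krt10* and *Krtdap* of the epidermis list had 127 to 988 and 3 to 127 counts and were detected in every library, as were *Myh2* (576 to 3477), *Mylpf* (20 to 1459) and *Actn3* (33 to 1128) of the fast skeletal muscle list. The summed count of 5 red cell genes (*Hbb-bs*, *Hbb-bt*, *Hba-a1*, *Hba-a2* and *Alas2*) was 86563 to 187013 in WT GV replicate 2, both WT GVBD and both KO GV libraries, 32453 in KO MII replicate 1, and 38 to 1423 in the other 6. KO MII replicate 1 therefore had many red cell counts with 43 counts of the 9 cardiac genes. Conversely WT MII replicate 1 and KO GVBD replicate 2 had 7216 and 6509 cardiac counts with 267 and 269 red cell counts.

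The summed count of 6 liver genes (*Alb*, *Apoa1*, *Ttr*, *Serpina1a*, *Cyp3a11* and *Mug1*) was 12212 to 19208 in WT GVBD replicate 1, WT MII replicate 1 and both KO GV libraries. It was 3582 and 4049 in KO GVBD replicate 1 and KO MII replicate 2, where *Tnnt2*, *Actc1* and *Ankrd1* were at 0, and at most 92 in the other 6. *Krt1*, *Krt5* and *Krt14*, keratins of the epidermis, summed to 2423 and 1607 counts in the WT GVBD libraries and to 0 in the other 10. The 6 fast fibre genes of skeletal muscle (*Acta1*, *Myh1*, *Tnnt3*, *Tnni2*, *Myl1* and *Atp2a1*) summed to 2447 and 1835 in WT GVBD, 610 in KO GV replicate 1 and 0 to 118 elsewhere. Of the 4 libraries low in cardiac genes, only WT GV replicate 1 was also low in red cell and liver genes, with 445 and 27 counts, and the part of other tissues in the split was not tested.

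**Figure D3:**
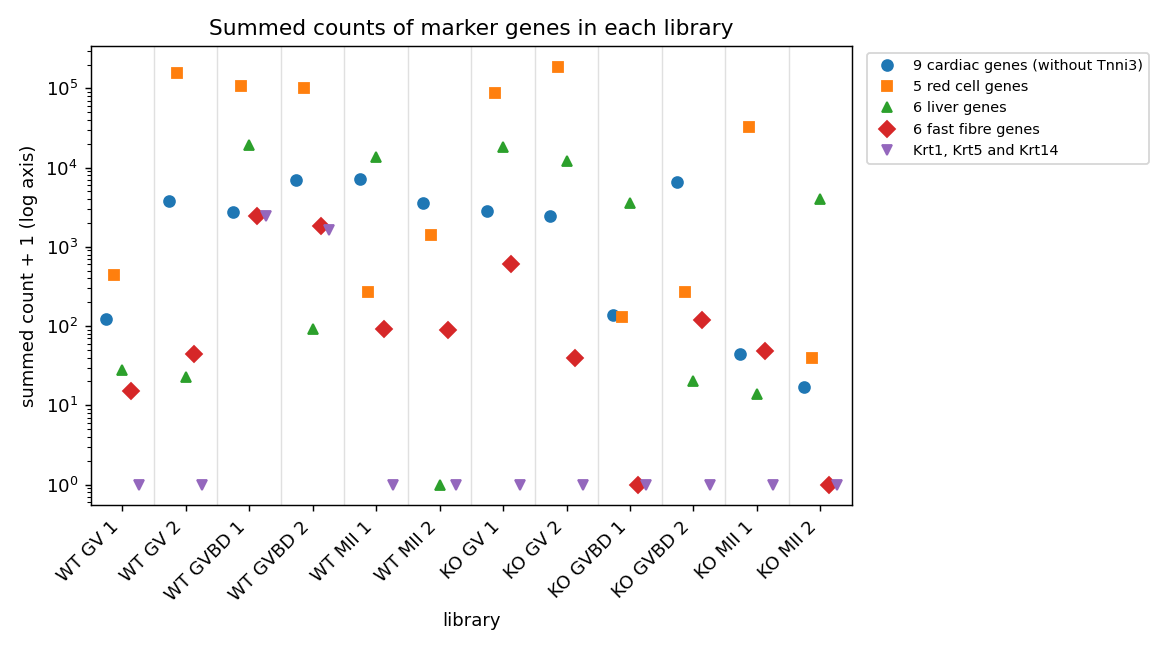
Summed counts + 1 (log axis) of 5 gene sets in each of the 12 libraries. The 9 cardiac genes are at 2462 to 7216 counts in 8 libraries and at 16 to 138 in the other 4. Red cell genes stay at 32453 in KO MII 1, and liver genes at 3582 and 4049 in KO GVBD 1 and KO MII 2.

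Depth did not separate the sets. The 4 low libraries held 36067277, 29968490, 35878168 and 31402587 counts (WT GV 1, KO GVBD 1, KO MII 1 and KO MII 2), within the range of 28557742 to 40247810 of the other 8. Detected genes numbered 22857, 22461, 22076 and 19837 in the 4, and 21938 to 24436 in the 8. Endogenous counts per ERCC count were 54.7 to 121 in the 4 and 47.0 to 128 in the 8.

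The design asks at each stage whether KO differed from WT. Counts were scaled to the ERCC total and tested with the quasi-likelihood test of edgeR, at a Benjamini-Hochberg adjusted p of at most 0.05 and an absolute log2 fold change of at least 1. At GV none of the 10 genes was called, against 0.0561% of 19625 genes tested. 1 of the 10, *Tnni3*, had an unadjusted p under 0.05, and DESeq2 called none. The fitted log2 changes for KO over WT were 0.67 ± 1.67 (SE) for *Myh6* (adjusted p = 0.886, edgeR) and 0.70 ± 0.81 for *Myl2* (adjusted p = 0.713, edgeR). The WT pair spanned 2 to 1312 counts of *Myh6*, so the KO values of 985 and 895 lay between the WT libraries. Without WT GV replicate 2 only the low WT library was left, and the log2 change of *Myh6* was 9.17. The low counts of the leading genes in that library were part of the choice, so calls in that fit, for the list too, are descriptions. Of the 40 list genes tested, none was called by edgeR, 3 had an unadjusted p under 0.05 and DESeq2 called 2, while without WT GV replicate 2 edgeR called 16. Their median log2 change was 0.70, against 0.36 over all genes tested.

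At GVBD none of the 10 genes was called either, and none had an unadjusted p under 0.05, against 2.00% of 19367 genes called, and DESeq2 called none. *Myh6* had a log2 change of -0.49 ± 1.17 (SE, adjusted p = 0.901, edgeR), with WT counts of 977 and 2371 and KO counts of 1 and 2201. One KO library was thus far below both WT libraries and the other within their range. Without KO GVBD replicate 2 only the low KO library was left, and the log2 change of *Myh6* was -9.89. The 0 counts of the leading genes in that library were part of the choice, so calls in that fit, for the list too, are descriptions. Of the 41 list genes tested, none was called, 2 had an unadjusted p under 0.05 and DESeq2 called 1, while without KO GVBD replicate 2 edgeR called 18. Their median log2 change was -0.41, against 0.23 over all genes tested.

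At MII both KO libraries were low and both WT libraries were high, and 8 of the 9 genes tested were called lower in KO, against 0.310% of 17426 genes called lower and 0.821% called in either direction. *Nppa* was not tested for too few counts. The 8 include *Tnnt2*, *Actc1* and *Ankrd1*, whose 0 counts in these KO libraries were part of what selected them, and the other 5 follow them across libraries, so the 8 calls are not separate lines of evidence. On the ERCC-scaled level, with 3 counts per library as the floor, the 3 leading genes were at least 199-fold (*Tnnt2*), at least 128-fold (*Actc1*) and at least 130.6-fold (*Ankrd1*) lower in KO. These bounds lean on WT MII replicate 1, and with WT MII replicate 2 alone they were 87.0, 67.4 and 37.0.

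For the genes that the choice did not use, *Myh6* fell by 7.69 ± 1.17 on the log2 scale (SE, adjusted p = 2.85e-07, edgeR), from 2785 and 1378 counts in WT to 13 and 2 in KO. *Myl2* fell by 4.56 ± 1.09 (adjusted p = 0.00713, edgeR), from 857 and 535 counts to 30 and 14. *Myl3* went from 510 and 310 counts to 0 and 0, at least 108-fold lower (adjusted p = 8.53e-07, edgeR). *Mybpc3* went from 375 and 215 counts to 0 and 0, at least 78.2-fold lower (adjusted p = 2.97e-06, edgeR), and *Tnnc1* from 277 and 147 to 0 and 0, at least 56.6-fold lower (adjusted p = 1.25e-05, edgeR). With WT MII replicate 2 alone the bounds were 58.0 for *Myl3*, 40.2 for *Mybpc3* and 27.5 for *Tnnc1*. *Myl3*, *Mybpc3* and *Tnnc1*, at 0 in both KO libraries, passed the filter on low counts only through the WT libraries. *Myh6*, with 2 counts in KO MII replicate 2, also needed the WT libraries to pass it. *Myl2* was above the filter in both genotypes, but like the others it followed the leading genes across libraries. The adjusted p-values of all these genes are therefore descriptions. *Nppa* had 72 and 6 counts in WT and 0 and 0 in KO, and its bound was only 1.1 with WT MII replicate 2 alone. The observed counts of the groups did not overlap for any of these genes, but for *Nppa* the gap was near the floor. The calls depended on the scaling and the design: 5 of the genes were called with TMM scaling (0.245% of all genes), 0 with median-of-ratios scaling (0.0114%), 9 by DESeq2 (1.33%) and 1 with all 12 libraries in one model (0.934%). The fold changes moved little with the scaling. With median-of-ratios scaling the log2 change was -7.99 for *Myh6* and -4.85 for *Myl2*, and the adjusted p of *Myh6*, *Myl2*, *Myl3*, *Mybpc3* and *Tnnc1* lay between 0.0541 and 0.07 (edgeR). Over all settings other than leaving out a library, the lowest adjusted p among them was 3.72e-13 (*Myh6*, DESeq2) and the highest 1 (*Myl2*, with the replicate numbers crossed as a block). Without WT MII replicate 1, 3 of the genes were called (0.0578% of all genes), and the log2 changes of *Myh6* and *Myl2* were -6.55 and -3.69.

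Of the 40 list genes tested at MII, 14 were called lower in KO and none higher. They included *Pln* (362 and 271 counts in WT, 0 and 0 in KO, adjusted p = 2.6e-06, edgeR), *Fabp3* (341 and 311, 0 and 0, adjusted p = 2.6e-06, edgeR) and *Ckmt2*, mitochondrial creatine kinase of muscle (215 and 123, 0 and 0, adjusted p = 3.81e-05, edgeR). The next called, by adjusted p, were *Myoz2*, *Ldb3*, *Tmod1*, *Tcap*, *Hrc*, *Lmod2* and *Ckm*, and the last 4, named after their values were seen, were *Xirp1*, *Csrp3*, *Hspb7* and *Ankrd23*. The median log2 change of the 40 was -3.56, or -3.20 with the 13 genes at 0 in both KO libraries set to their bound, against 0.30 over all genes tested. The number of list genes called was 2 without WT MII replicate 1 and 3 without WT MII replicate 2. It was 3 with TMM scaling and 0 with median-of-ratios scaling. The 13 genes at 0 in both KO libraries, with *Pln*, *Fabp3* and *Ckmt2* among them, passed the filter on low counts only through the WT libraries. So did *Ckm* (4 and 0 counts in KO MII), *Hspb7* (4 and 0) and *Csrp3* (0 and 8). All 14 calls in the list are therefore descriptions. The summed count of the red cell genes was 267 and 1423 in WT MII against 32453 and 38 in KO MII, and that of the liver genes 13452 and 0 against 13 and 4049.

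Over all stages together, none of the 10 genes was called by edgeR or DESeq2 and none had an unadjusted p under 0.05, against 1.24% of 22046 genes called. *Myh6* had a log2 change of -1.47 ± 1.68 (SE, adjusted p = 0.681, edgeR) over 6 libraries per genotype. The summed count of the 9 genes other than *Tnni3*, as CPM, was 1.25 times the WT value in KO oocytes of the GV stage, 0.653 times at GVBD and 0.00605 times at MII. Per ERCC count the ratios were 1.53, 0.754 and 0.00728. The first of these directions turned with 1 library: without WT GV replicate 1 the GV ratio of CPM was 0.643, and without WT GV replicate 2 it was 24.8. At GVBD it was 1.27 without KO GVBD replicate 1, 1.15 without WT GVBD replicate 2 and 0.0328 without KO GVBD replicate 2, so that direction turned too. At MII it stayed between 0.00363 and 0.00944 whichever library was left out. Leaving out libraries was chosen here after seeing the data. Of the 42 list genes tested over all stages, none was called, 3 had an unadjusted p under 0.05 and DESeq2 called 1.

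Whether the change from GV to MII differed between genotypes was tested as an interaction, and none of the 10 genes passed, nor did any of 21009 genes (0%). All 10 had an unadjusted p under 0.05, as had 5.68% of all genes tested, and DESeq2 called 5, against 0.584% of 31156 genes. These counts, and those below without 1 library, include some of the 3 leading genes, whose 0 counts in KO MII helped select them. Such counts are therefore descriptions. *Myl2* had a difference of -5.26 ± 1.31 (SE, adjusted p = 0.453, edgeR) and *Myh6* of -8.36 ± 2.48 (adjusted p = 0.552, edgeR). Without WT GV replicate 2, which leaves only the low WT library at GV, 8 of the 10 genes were called, against 0.171% of all genes in that fit. Without WT GV replicate 1, 3 were called, against 0.0873%. None of 40 list genes was called by edgeR, 21 had an unadjusted p under 0.05 and DESeq2 called 9. The list calls numbered 9 without WT GV replicate 2 and 2 without WT GV replicate 1.

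*Tnni3*, the gene outside the split, had a stage pattern of its own. Scaled to ERCC, the WT pairs stood at 40916 and 30501 (GV), 39216 and 22099 (GVBD) and 1640 and 981 (MII). The KO pairs stood at 25010 and 22910 (GV), 19614 and 21473 (GVBD) and 9627 and 1736 (MII). The KO libraries were below both WT libraries at GV and GVBD and above both at MII. None of these differences was called. The log2 changes were -0.58 ± 0.19 at GV (SE, adjusted p = 0.22, edgeR), -0.58 ± 0.50 at GVBD (adjusted p = 0.65, edgeR) and 2.12 ± 0.81 at MII (adjusted p = 0.291, edgeR). The interaction of genotype with the change from GV to MII was 2.69 ± 0.93 (adjusted p = 0.671, edgeR). The KO MII pair was itself 9627 and 1736, and without KO MII replicate 1 the MII change was 0.41. The interaction passed without KO MII replicate 2, at 3.45 (adjusted p = 0.0125, edgeR), and its adjusted p ran up to 1 when other libraries were left out. It also passed with no filter on low counts (adjusted p = 0.0239, edgeR), and ranged up to 0.729 over the other settings.

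**Figure D4:**
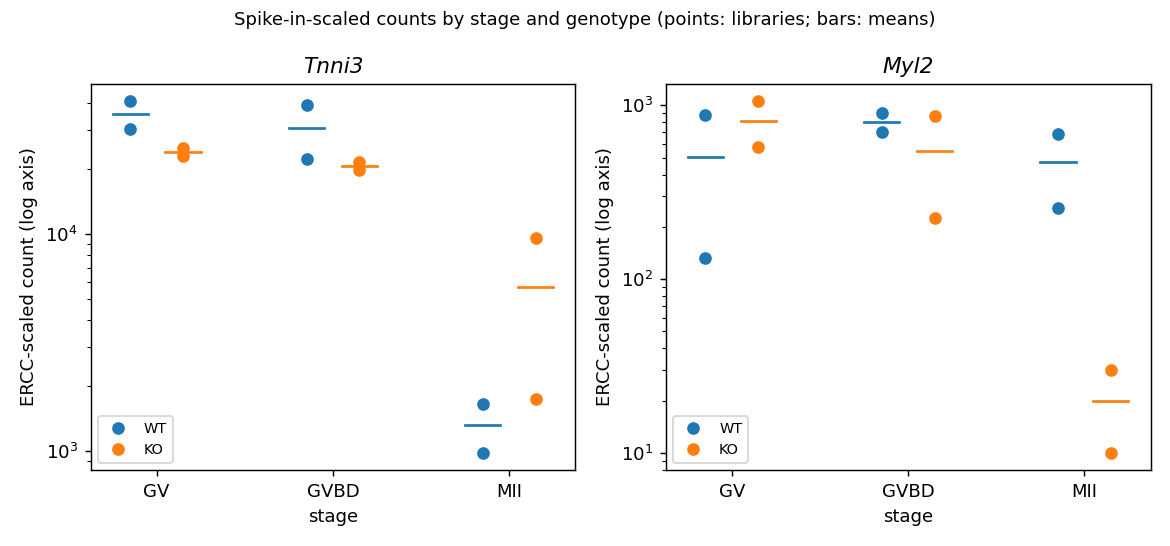
ERCC-scaled counts (log axes) of *Tnni3* (left) and *Myl2* (right) by stage for WT and KO. Points are libraries and short bars the mean of 2. In WT, *Tnni3* is at 30501 or more at GV and at 1640 or less at MII, with KO MII at 9627 and 1736. *Myl2* is lowest in KO MII, at 30.0 or less.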

How the data were processed

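RNA from pools of WT and *Alkbh5*-/- mouse oocytes was measured by RNA-seq in 12 libraries, 2 per group. The authors deposited 1 table of raw counts of reads per gene, with 56691 Ensembl genes and 92 ERCC sequences and no normalization. The study's methods describe SMART-seq libraries and alignment of uniquely mapped reads to mm10 with ERCC sequences, whereas the labels describe a bulk mRNA preparation. The submitters' processing notes name cutadapt 1.9, HISAT2 2.0.4, StringTie 1.3.4d, DESeq2 and edgeR; the annotation release, the counting step and its use of strand are not given in the sources used here. Reads of antisense partners may therefore not be told apart, and amplified reads without molecular identifiers are not independent molecules, so counts of 0 bound counting error only.

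Symbols came from GENCODE M21, which named 52073 genes (91.9%), and gene positions are on GRCm38. Each stage was fitted on its 4 libraries with edgeR 4.0.16 (quasi-likelihood, R 4.3.3), after edgeR's filter on low counts, with the library size set by the ERCC total as in the study's methods. The fit over all stages had stage as a covariate, and the interaction used the 8 GV and MII libraries. A gene was called at a Benjamini-Hochberg adjusted p of at most 0.05 over all genes tested and an absolute log2 fold change of at least 1. ERCC-scaled counts are counts divided by the ERCC total of the library times the mean ERCC total. The SE given with an edgeR log2 change was back-calculated, as the absolute change divided by the square root of the quasi-likelihood F statistic. Groups came from the labels' titles.

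The genes and gene lists were chosen with earlier results of these data known. The genes named are the 10 chosen, list genes called (up to 10 by adjusted p) or with the 5 highest counts, the 8 most like the mean of the 10 by Pearson's r on log2(CPM + 1) among genes with at least 100 counts in a library, the neighbours of the 3 leading genes, paralogs and *Alkbh5*. The alternatives were TMM and median-of-ratios scaling, no filter on low counts, DESeq2 1.42.0, the replicate number as a block, all 12 libraries in one model and leaving out each library. The scripts were tested on simulated data. Protein sequences were not used here.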

Additional observations from a re-analysis of the deposited data

Results flagged for a closer look

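*Tnni3* was singled out because every KO library moved one way at some stages and the opposite way at another. Its KO over WT log2 fold change, scaled to ERCC, was -0.58 at GV and -0.58 at GVBD, with both KO libraries below both WT libraries, and 2.12 at MII, with both KO libraries above both WT libraries. The GVBD contrast with MII was not tested. The GV contrast with MII was tested as an interaction, which gave 2.69 ± 0.93 (SE, adjusted p = 0.671, edgeR) and did not pass. With 2 libraries per group, no group was large enough to test a single library as an outlier.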

How the results depend on the processing

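With 2 libraries per group and KO and WT pairs that differ within themselves, the calls depended on the setting. Counts of the 10 genes called include *Tnnt2*, *Actc1* and *Ankrd1* where these passed, and their calls are descriptions. The number of the 10 genes called at MII, 8 as reported, was 5 with TMM scaling, 0 with median-of-ratios scaling and 1 with all 12 libraries in one model, and 3 to 9 when 1 library was left out. The list genes called at MII, 14 as reported, numbered 3, 0 and 1 under those settings and 2 to 17 when 1 library was left out. TMM scaling moved the median log2 change of all genes from 0.30 to 0.00 at MII and from 0.36 to 0.00 at GV. Fits that leave a group with 1 library assume that it varies like the other groups.

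At GV 0 to 8 of the 10 genes and 0 to 16 list genes were called when 1 library was left out, and at GVBD 0 to 7 and 0 to 18. The list calls at GV were 1 with no filter and 2 by DESeq2, and at GVBD 1 with no filter and 1 by DESeq2. Over all stages 1 of the 10 genes (*Myh6*) was called with no filter, and list calls were 1 with TMM scaling, 1 with median-of-ratios scaling, 3 with no filter, 1 by DESeq2 and 0 to 2 when 1 library was left out. For the interaction, 9 of the 10 genes and 16 list genes were called with no filter, 5 and 9 by DESeq2, and 0 to 8 and 0 to 9 when 1 library was left out.

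The direction of *Tnni3* over all stages, 0.26, reversed to -0.052 with TMM scaling and -0.078 with median-of-ratios scaling, and ran from -0.32 to 0.50 when 1 library was left out. Leaving out 1 library also reversed log2 changes of genes that were not called. At GV these ranged from -0.34 to 9.17 for *Myh6*, -0.26 to 9.73 for *Tnnc1*, -0.45 to 10.08 for *Mybpc3*, -0.10 to 2.62 for *Myl2*, -0.57 to 10.97 for *Myl3* and -0.018 to 6.84 for *Nppa*. At GVBD they ranged from -9.89 to 0.51 for *Myh6*, -10.49 to 0.82 for *Tnnc1*, -10.69 to 0.48 for *Mybpc3*, -1.84 to 0.10 for *Myl2*, -11.31 to 0.72 for *Myl3* and -7.63 to 0.24 for *Nppa*. The cause was not tested.

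Whether replicate numbers pair the libraries could not be settled, with 1 WT and 1 KO difference at each stage. The deviations of same-numbered WT and KO libraries correlated at -0.219 at GV, 0.14 at GVBD and -0.19 at MII over 13273 genes. With the replicate number as a block, 1 of the 10 genes and 0 list genes were called at MII, and 1 list gene over all stages. A crossed block, chosen after seeing the data, gave 0 of the 10 genes and 0 list genes at MII and 1 list gene at GV.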
